A study of Mus musculus with 6 samples.

Results

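The genes described here encode sensors that intestinal epithelial cells (IEC) use to detect microbes, namely the Nod-like receptors Nod1, Nod2 and Nlrp6, the Toll-like receptors Tlr1, Tlr2, Tlr3, Tlr4 and Tlr5, the secreted peptidoglycan-binding protein Pglyrp1 and the shared adaptor Myd88. They were taken by symbol from the deposited table of 19616 genes. Of the 10 genes, 9 have a row in the table, 8 passed the filter on low counts, Tlr5 did not pass it, and Tlr4 was not analysed here. The libraries came from jejunal IEC, enriched with EDTA, of 3 wild-type control mice (C1, C3 and C3-3) and 3 villin-Cre Hdac1-/-; Hdac2-/- mice (H1, H5 and H9), all aged 3 months, with 1 library per mouse. The mutant line was kept on a mixed C57BL/6J, 129SV and CD1 background, and the labels name no treatment for either group. In the mutant mice the floxed Hdac1 and Hdac2 genes are deleted by a Cre recombinase that the villin promoter drives in the intestinal epithelium, so other cells left in an EDTA preparation keep both genes. Each library held 36111035 to 65902344 counted reads. Levels are given as CPM, read counts relative to library size after TMM scaling, as mean ± SD (n = 3 mice). A level of 3 counts, the floor used here, is 0.0405 to 0.079 CPM, and it covers counting error only. Hdac1 RNA was 40.8 ± 7.32 CPM in control IEC and 3.77 ± 1.15 CPM in mutant IEC, whereas Hdac2 RNA was 27.7 ± 4.71 and 24.5 ± 2.7 CPM with overlapping groups. The count of Hdac2 covers the whole gene, and the sources used here do not say which exons the deletion removes.

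Nod1 and Nod2 are cytosolic receptors for fragments of bacterial cell walls. Nod1 recognizes peptides that contain meso-diaminopimelic acid and Nod2 recognizes muramyl dipeptide, and both signal through the kinase Ripk2 to NF-kappaB. Toll-like receptors bind microbial lipids, proteins and nucleic acids at the cell surface or in endosomes, and most of them signal through Myd88. In the small intestine Nod2 is known from Paneth cells and crypt stem cells, and Nlrp6 from enterocytes and goblet cells, where it forms inflammasomes with Pycard and Casp1.

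Differences are log2 fold changes of mutant against control IEC, called log2 differences, with their standard error (SE), and p-values come from edgeR's quasi-likelihood fit, adjusted by Benjamini-Hochberg over all 15618 tested genes. A gene was called higher or lower at an adjusted p of 0.05 or less together with a difference of 2-fold or more. Of the 8 tested sensor genes, Nod1 rose and Nod2, Tlr1, Tlr3 and Nlrp6 fell, so 1 was called higher and 4 lower. Over all tested genes, 12.4% were called higher and 12.7% lower, or 25.2% in either direction. Without the 2-fold limit, 2 of the 8 genes were higher and 5 lower, beside 20.5% and 20.3% of all genes. The levels of the groups did not overlap for 7 of the 8 genes, 2 higher and 5 lower, beside 53.2% of all tested genes (26.7% higher and 26.6% lower). In bulk RNA, fewer cells of a type and less RNA per cell cannot be told apart. When counts were scaled by library totals alone, the median log2 difference of all tested genes moved from -0.01 to 0.18. The balance of called genes then moved from 1944 higher and 1990 lower (49.4% higher) to 2463 higher and 1538 lower (61.6% higher).

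**Figure D1:**
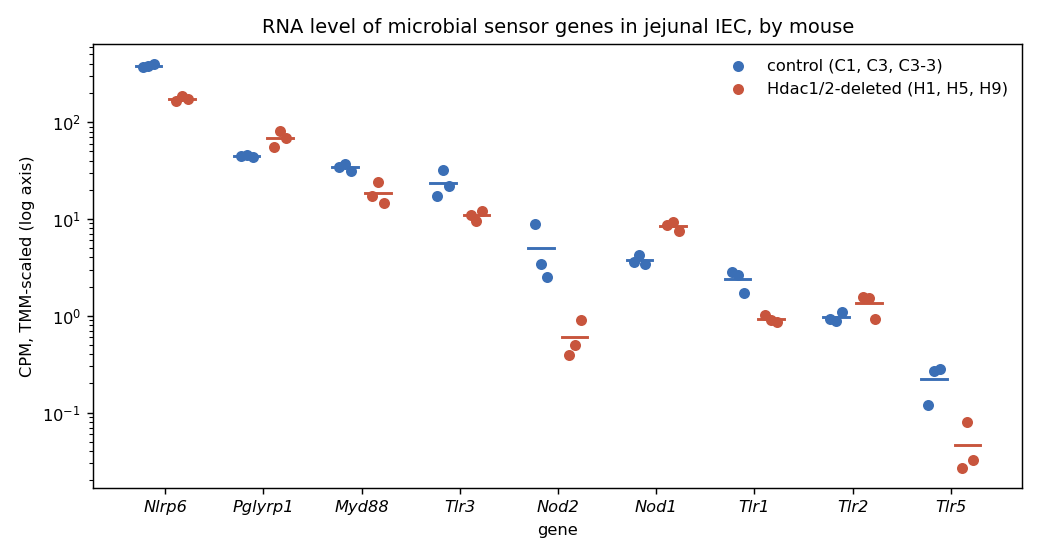
RNA level of 9 microbial sensor genes in each mouse, as TMM-scaled CPM on a log axis, with 1 point per mouse and a line at each group mean (blue, control; red, Hdac1/2-deleted). Nod1 and Pglyrp1 lie higher in every mutant mouse, the groups overlap for Tlr2, and the other 6 genes lie lower in every mutant mouse.

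The start regions of 3 of these genes are shown because Nod2 and Nod1 moved in opposite directions and Nlrp6 is the most abundant Nod-like receptor here. Each run covers the 250 bases before the RefSeq start of the gene and its first 50 bases (GRCm38.p6), 5′ to 3′ on the strand of the gene. The Nod2 window is chr8:88647097-88647396 on the plus strand, the Nod1 window chr6:54972563-54972862 on the minus strand, and the Nlrp6 window chr7:140920652-140920951 on the plus strand. Capitals mark matches to any of 4 motifs, searched on both strands: the STAT motif TTCNNNGAA, the NF-kappaB motif (GGG and CC with any 5 bases between them), the interferon response motif (GAAA and GAAA again with any 2 bases between them) and the TATA box TATAAA.
Nod2: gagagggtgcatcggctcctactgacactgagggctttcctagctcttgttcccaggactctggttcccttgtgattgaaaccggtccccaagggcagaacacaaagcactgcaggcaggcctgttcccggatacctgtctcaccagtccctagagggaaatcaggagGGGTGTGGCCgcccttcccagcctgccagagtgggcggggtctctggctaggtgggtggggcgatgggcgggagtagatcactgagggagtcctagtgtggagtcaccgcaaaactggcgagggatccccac
Nod1: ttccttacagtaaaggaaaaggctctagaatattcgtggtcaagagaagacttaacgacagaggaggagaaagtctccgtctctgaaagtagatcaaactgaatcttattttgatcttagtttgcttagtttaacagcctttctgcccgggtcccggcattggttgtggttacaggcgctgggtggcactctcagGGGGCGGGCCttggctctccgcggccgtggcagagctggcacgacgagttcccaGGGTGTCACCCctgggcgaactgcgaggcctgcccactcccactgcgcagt
Nlrp6: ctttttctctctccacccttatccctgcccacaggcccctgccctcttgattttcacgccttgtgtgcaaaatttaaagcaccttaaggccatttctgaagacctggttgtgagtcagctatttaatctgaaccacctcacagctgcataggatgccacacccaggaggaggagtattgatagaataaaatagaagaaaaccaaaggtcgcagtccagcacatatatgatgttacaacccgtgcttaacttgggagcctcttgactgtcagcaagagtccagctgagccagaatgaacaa
The Nod2 window held 1 match to the NF-kappaB motif, which begins 82 bases before the start. The Nod1 window held 3 matches to it, of which 1 begins 55 bases before the start and the other 2 overlap each other at the start itself. None of the 4 motifs was found in the Nlrp6 window. The NF-kappaB motif occurs in 50.8% of the 32851 RefSeq windows of this kind, the STAT motif in 8.3%, the interferon response motif in 3.44% and TATAAA in 13.6%. All 9 genes matched a window. Among the windows not shown, the STAT motif was found for Myd88 and for a further annotated start of Nod1 and of Tlr1, and the interferon response motif for Myd88, where it overlaps the STAT match. The ratio of observed to expected CpG dinucleotides was 0.326 for Nod2, 0.673 for Nod1 and 0.188 for Nlrp6, beside a median of 0.384 over all windows.

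Nod2, listed as ENSMUSG00000055994, lies on chromosome 8 from 88647315 to 88688474 of GRCm38 (plus strand). Its level was 8.96 CPM in C1, 3.44 in C3 and 2.5 in C3-3, against 0.391 in H1, 0.5 in H5 and 0.91 in H9. Every mutant mouse was below every control mouse, and C1 stood above the other control mice. Nod2 was 8.24-fold lower in mutant IEC, a log2 difference of -3.04 (SE 0.56, edgeR adjusted p = 0.0029). Without C1 the decrease was 4.9-fold, with a log2 difference of -2.29 (SE 0.43, edgeR adjusted p = 0.0034). The reads behind these levels numbered 133 to 594 in control mice and 19 to 56 in mutant mice.

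Paneth cell markers were also lower in mutant IEC. Of 14 tested markers, 0 were called higher and 12 lower, with a median log2 difference of -3.95, and 9 to 11 were called lower when 1 mouse was left out. Their summed level was 3440 to 5410 CPM in control mice, with the highest value in C1, and 188 to 298 CPM in mutant mice. Within the mutant mice the order differed, since H9 had the highest level of Nod2 and the lowest sums of Paneth cell markers (188 CPM, against 286 in H1 and 298 in H5) and of stem cell markers (149 CPM, against 257 and 225). The lysozyme gene Lyz1 had the highest CPM of them in control IEC (1560 ± 695, and 54.9 ± 11.2 in mutant IEC). The largest called decreases were those of Defa26 (log2 difference -5.49) and Ang4 (-5.33). Crypt stem cell markers summed to 395 to 533 CPM in control mice, again highest in C1, and to 149 to 257 CPM in mutant mice, with 2 of 7 called lower (4 without C3 and 2 or 3 without any other mouse). Those 2 were Olfm4, which had the highest CPM of the list (273 ± 40.9 and 91.4 ± 33.9 CPM), and Lgr5 (log2 difference -1.54). The part of these markers in the level of Nod2 was not tested.

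Nod1, listed as ENSMUSG00000038058, lies on chromosome 6 from 54923949 to 54972612 of GRCm38 (minus strand). Its level was 3.55 CPM in C1, 4.21 in C3 and 3.46 in C3-3, and it was 8.73 in H1, 9.32 in H5 and 7.54 in H9. The control mice lay close together and every mutant mouse was above them. Nod1 rose 2.28-fold, a log2 difference of 1.19 (SE 0.21, edgeR adjusted p = 0.0023), and it was called higher under all 15 alternatives tried.

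Within each library the ratio of Nod2 to Nod1 reads does not depend on scaling. It was 2.53 in C1, 0.816 in C3 and 0.723 in C3-3, and 0.0448 in H1, 0.0537 in H5 and 0.121 in H9. On the log2 scale the mean ratio was 0.19 ± 1 in control mice and -3.92 ± 0.76 in mutant mice (SD, n = 3), a difference of -4.11. The exact two-sided permutation test gave p = 0.1, the smallest value that 3 mice against 3 allow. With 1 mouse left out the difference ranged from -4.54 to -3.54.

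**Figure D2:**
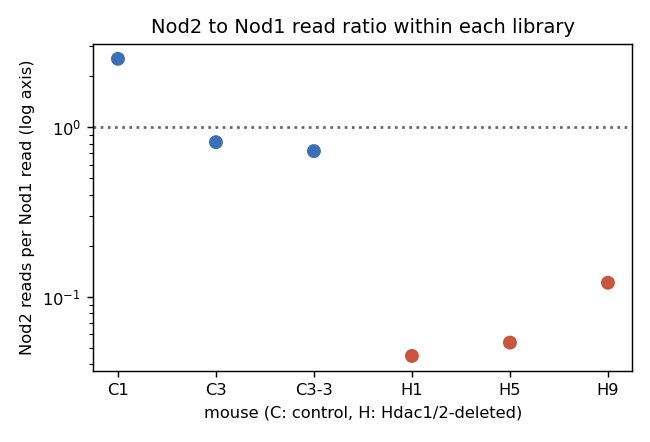
Number of Nod2 reads per Nod1 read in each library on a log axis, with a dotted line at equal numbers (blue, control; red, Hdac1/2-deleted). The control mice lie between 0.723 and 2.53 and the mutant mice between 0.0448 and 0.121.

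Among 15 tested genes of Nod signalling, 1 was called higher and 3 lower, with a median log2 difference of -0.19. Ripk2, the kinase that both Nod receptors use, was 2.39 ± 0.424 CPM in control and 2.42 ± 0.247 CPM in mutant IEC, with overlapping groups and a log2 difference of 0.02 (SE 0.27, edgeR adjusted p = 0.97). Of 4 tested carriers for bacterial cell wall peptides, 2 were called lower. Slc15a1, the brush border peptide transporter PepT1, had a log2 difference of -2.69 (742 ± 403 and 115 ± 45.4 CPM), and Slc46a3, a solute carrier of a family that moves such peptides, one of -2.1 (69.6 ± 10.1 and 16.3 ± 7.41 CPM). The other 2 were not called, with log2 differences of 1.1 for Slc15a3 (0.341 ± 0.173 and 0.732 ± 0.298 CPM) and 0.08 for Slc15a4 (11.1 ± 1.83 and 11.7 ± 2.99 CPM), and both are named after their values were seen. Card9, an adaptor best known from myeloid cells, rose from 0.129 ± 0.0628 to 1.68 ± 0.884 CPM, a log2 difference of 3.7. It had 5 to 11 reads in each control library and passed the filter on low counts only with the mutant libraries.

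Nlrp6, listed as ENSMUSG00000038745, lies on chromosome 7 from 140920902 to 140929192 of GRCm38 (plus strand). Its level was 370 CPM in C1, 380 in C3 and 397 in C3-3, and 165 in H1, 186 in H5 and 172 in H9. Both groups were tight and lay far apart. Nlrp6 was 2.19-fold lower in mutant IEC, a log2 difference of -1.13 (SE 0.13, edgeR adjusted p = 0.00026). Scaled by library totals alone, its log2 difference was -0.94 (adjusted p = 0.00038, edgeR), which is under the 2-fold limit. Over that scaling the median gene stood at 0.18.

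Of 19 tested genes for other Nod-like receptors and inflammasome components, 1 was called higher and 2 lower, with a median log2 difference of -0.03. The number higher was 3 without H5 and under scaling by library totals and 2 without C3-3, and 3 were lower without C1 or H9. The decreased genes were Nlrp9b, a receptor known from the small intestinal epithelium (19.5 ± 8.37 and 7.22 ± 1.29 CPM, log2 difference -1.43), and the mitochondrial family member Nlrx1 (8.82 ± 2.27 and 2.57 ± 0.556 CPM, -1.77). Mefv, which encodes pyrin, had 1 to 4 reads in each control library and passed the filter on low counts only with the mutant libraries. Its log2 difference was 2.75, at 0.0324 ± 0.0242 CPM in control and 0.236 ± 0.12 CPM in mutant IEC. Without H9 it was not called (log2 difference 2.25, adjusted p = 0.057, edgeR), while without C1 its value was 3.55. The partners of Nlrp6 were not called and are named here after their values were seen. The inflammasome adaptor Pycard was 202 ± 25.4 and 235 ± 17.3 CPM with overlapping groups, and the protease gene Casp1 was 117 ± 4.51 and 74.2 ± 4.24 CPM (log2 difference -0.66, adjusted p = 0.0027, edgeR). Il18, a cytokine that Casp1 matures, was 50.2 ± 3.13 and 66 ± 9.62 CPM (log2 difference 0.39, adjusted p = 0.056, edgeR).

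Enterocyte markers, which mark a cell type in which Nlrp6 is known, summed to 57100 to 74600 CPM in control mice and to 19900 to 26900 CPM in mutant mice. Of 8 tested, 1 was called higher and 4 lower. The gene called higher was Alpi, a brush border phosphatase (1510 ± 765 and 3470 ± 179 CPM, log2 difference 1.2), which is named after its value was seen and lost its call without C1, C3-3, H1 or H5. Apoa4 had the highest CPM of the list in control IEC (38400 ± 6240, and 6280 ± 3130 in mutant IEC), and Slc15a1 had the largest called decrease. Apoa4 alone gave 32200 to 44600 CPM of the sum in control mice and 3570 to 9700 CPM in mutant mice. Sis (log2 difference -0.55), Fabp1 (-0.38) and Anpep (-0.42) were not called, and these 3 are named after their values were seen. Pan-epithelial markers such as Vil1, which had the highest CPM (4220 ± 716 and 3050 ± 449 CPM), summed to 13600 to 15500 CPM and 10700 to 13200 CPM. Of these 8, 1 was called, Krt18 (log2 difference 1.02), which lost its call without C3 or H5. Goblet cell markers were not measured here. The part of these markers in the level of Nlrp6 was not tested.

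Tlr3, a receptor for double-stranded RNA in endosomes, is listed as ENSMUSG00000031639 and lies on chromosome 8 from 45395665 to 45411080 of GRCm38 (minus strand). It was the most abundant of the Toll-like receptors analysed here. Its level was 17.3 CPM in C1, 31.7 in C3 and 22 in C3-3, and 11.1 in H1, 9.58 in H5 and 12.1 in H9. The mutant mice were closely grouped below all control mice, which spread more. Tlr3 was 2.16-fold lower, a log2 difference of -1.11 (SE 0.23, edgeR adjusted p = 0.005). It lost its call without C3 (log2 difference -0.84, adjusted p = 0.015, edgeR) and under scaling by library totals (-0.91, adjusted p = 0.011, edgeR). An antisense transcript, Gm45542, shares 381 exon bases with it. The kit marks strand, but whether the counting used it is not given in the sources used here.

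Tlr1, which pairs with Tlr2 to bind triacylated lipopeptides, is listed as ENSMUSG00000044827 on chromosome 5 from 64924679 to 64933563 (minus strand). Its level was 2.84 CPM in C1, 2.66 in C3 and 1.71 in C3-3, and 1.01 in H1, 0.895 in H5 and 0.861 in H9. All mutant mice were below all control mice. The decrease was 2.6-fold, a log2 difference of -1.38 (SE 0.32, edgeR adjusted p = 0.008), and it was called under all 15 alternatives. Of the windows of 50 bases along the Tlr1 transcript, 15.3% also occur in Tlr6, a close paralog, and how the counting treated reads from such stretches is not given in the sources used here. Tlr6 itself, named for this reason, was 1.62 ± 0.435 and 1.85 ± 0.283 CPM, a log2 difference of 0.19 (SE 0.32, edgeR adjusted p = 0.66). No other sensor gene analysed here shared a window with another gene.

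Tlr2, listed as ENSMUSG00000027995 on chromosome 3 from 83836272 to 83841767 (minus strand), was 0.921 CPM in C1, 0.882 in C3 and 1.09 in C3-3, and 1.57 in H1, 1.53 in H5 and 0.926 in H9. H1 and H5 were above all control mice, whereas H9 lay among them. Its log2 difference was 0.47 (SE 0.34, adjusted p = 0.3, edgeR), a difference that was not resolved from the spread between mice.

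Tlr5, the surface receptor for flagellin, is listed as ENSMUSG00000079164 on chromosome 1 from 182954788 to 182976044 (plus strand). It had 8 reads in C1, 15 in C3 and 15 in C3-3, and 2 in H1, 3 in H5 and 2 in H9. Every mutant library was at or under the floor of 3 counts, and too few libraries had enough reads for the gene to pass the filter. Summed over mice, 38 control and 7 mutant reads gave a ratio of 5.39 (95% exact Poisson interval 2.38 to 14.3, counting error only). Without the filter its log2 difference was -2.33 (SE 0.72, adjusted p = 0.031, edgeR over 19616 genes), and the DESeq2 value was -2.35 (adjusted p = 0.053). In the cytosol flagellin is detected by Naip proteins with Nlrc4, which was 35.2 ± 2.63 and 34.4 ± 4.81 CPM with overlapping groups (log2 difference -0.03, SE 0.15, adjusted p = 0.89, edgeR).

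Of 5 other tested Toll-like receptor genes, 1 was called higher and 0 lower, and without H1 2 were called higher. Tlr13, an endosomal receptor for bacterial ribosomal RNA, rose from 0.238 ± 0.0325 to 1.29 ± 0.338 CPM, a log2 difference of 2.42 (SE 0.39, edgeR adjusted p = 0.0012). Tlr9, which binds CpG DNA, was 0.243 ± 0.0459 and 0.531 ± 0.308 CPM with overlapping groups (log2 difference 1.12, adjusted p = 0.14, edgeR). Macrophage and monocyte markers moved the same way. Their summed level was 15.6 to 20.3 CPM in control mice and 32.5 to 60 CPM in mutant mice, and of 10 tested, 4 were called higher and 0 lower (2 without H9 and 6 without H1, and 7 under scaling by library totals). Csf1r had the highest CPM of the list (3.65 ± 0.865 and 12.3 ± 4.86 CPM), in control IEC close to that of Lyz2 (3.61 ± 0.132 CPM). Mrc1 had the largest change (log2 difference 3.32). The part of such cells in the levels of Tlr13, Tlr2 and Card9 was not tested.

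Pglyrp1, a secreted protein that binds and kills bacteria through their peptidoglycan, is listed as ENSMUSG00000030413 on chromosome 7 from 18871331 to 18890459 (plus strand). Its level was 44.4 CPM in C1, 45.3 in C3 and 43.2 in C3-3, and 56 in H1, 81.3 in H5 and 67.8 in H9. The control mice lay close together, and all mutant mice lay above them with a wider spread. Its log2 difference of 0.63 (SE 0.16, adjusted p = 0.011, edgeR) corresponds to 1.54-fold and is under the 2-fold limit. Pglyrp1 is also abundant in neutrophils. Of 11 neutrophil markers, 3 were found in the table. Their sum was 1.37 to 1.71 CPM in control mice and 30.6 to 65.7 CPM in mutant mice, nearly all of it from Ltf (1.42 ± 0.145 and 50.9 ± 18.3 CPM), while Csf3r and Retnlg stayed under the filter with 3 to 50 reads a library. The part of neutrophils in the level of Pglyrp1 was not tested.

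Myd88, the adaptor of most Toll-like receptors, is listed as ENSMUSG00000032508 on chromosome 9 from 119335934 to 119341411 (minus strand). Its level was 34.5 CPM in C1, 37 in C3 and 31.3 in C3-3, and 17.4 in H1, 23.9 in H5 and 14.7 in H9. All mutant mice were below all control mice, with H5 the nearest to them. The log2 difference was -0.88 (SE 0.2, adjusted p = 0.0066, edgeR), or 1.84-fold lower, which is under the 2-fold limit. Without H5 it passed that limit (log2 difference -1.09, adjusted p = 0.003, edgeR). The gene Acaa1a on the opposite strand shares 290 exon bases with Myd88.

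**Figure D3:**
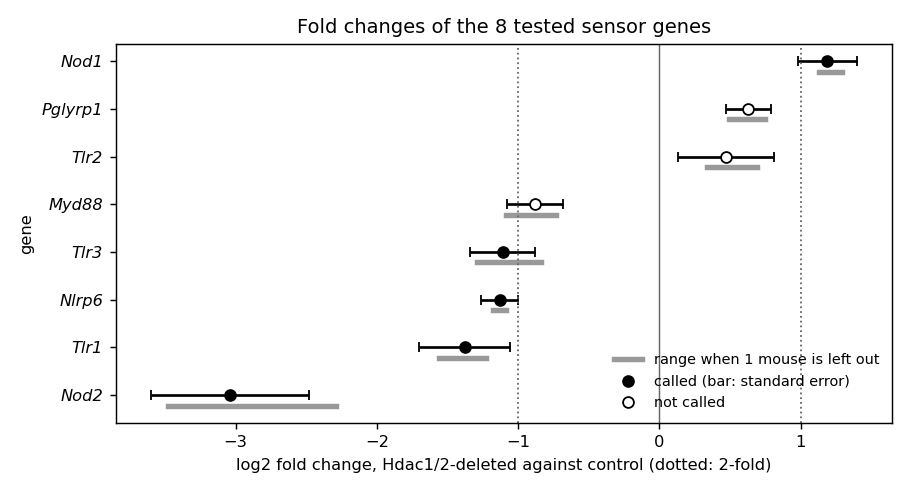
Log2 fold change of the 8 tested sensor genes in Hdac1/2-deleted against control IEC, with bars for the standard error, filled points for called genes, dotted lines at 2-fold and grey bars for the range when 1 mouse is left out. Nod2 has the largest change and the widest range (-3.48 to -2.29), Nlrp6 has a narrow one (-1.18 to -1.09), and the ranges of Tlr3 and Myd88 cross the 2-fold line.

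Other parts of Toll-like receptor signalling were measured in the same way. Of 17 tested adaptors, kinases and inhibitors, 1 was called higher and 1 lower, with a median log2 difference of -0.25. Groups did not overlap for 3 higher and 7 lower genes, beside 26.7% and 26.6% of all tested genes. Irak1 (log2 difference -0.85), Tab1 (-0.75) and Sigirr (-0.72) were lower at adjusted p of 0.015 or less (edgeR), under the 2-fold limit. These 3 are named after their values were seen. Ticam1, also called TRIF, is the adaptor through which Tlr3 signals, and it fell from 118 ± 2.1 to 54.6 ± 4.72 CPM, a log2 difference of -1.12 (SE 0.13, edgeR adjusted p = 0.00021). Scaled by library totals its value was -0.93, under the 2-fold limit. Sarm1, with 2 to 6 reads in each control library, rose from 0.0586 ± 0.0429 to 0.313 ± 0.0807 CPM, a log2 difference of 2.4 that reached 3.15 without C3. It too passed the filter on low counts only with the mutant libraries.

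Of 9 tested accessory proteins of Toll-like receptors, 1 was called higher and 2 lower, and 2 were higher under scaling by library totals. Cd14, which hands lipopolysaccharide to its receptor complex, was 58.2 ± 9.73 CPM in control and 14.5 ± 3.88 CPM in mutant IEC, a log2 difference of -2.01 (SE 0.22, edgeR adjusted p = 0.00018). Ly96 (MD-2), a further part of that complex, was 0.514 ± 0.37 and 0.195 ± 0.111 CPM with overlapping groups (log2 difference -1.36, adjusted p = 0.13, edgeR). Cd36, a fatty acid carrier that also presents lipopeptides to Tlr2, had a log2 difference of -4.88. Cnpy3, a chaperone that Toll-like receptors need to reach their compartments, rose from 30 ± 4.44 to 78.1 ± 8.08 CPM, a log2 difference of 1.38.

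NF-kappaB is the transcription factor that Nod and Toll-like receptors activate. Of 13 tested subunits and inhibitors, 0 were called higher and 1 lower, Nfkbie (log2 difference -1.08, adjusted p = 0.037, edgeR), which lost its call when any of C3, H1, H5 or H9 was left out (adjusted p from 0.076 to 0.16, edgeR) and under scaling by library totals (log2 difference -0.88). Without C3, 1 gene of this list was called higher. Under the 2-fold limit, Relb (log2 difference -0.71) and Nfkb1 (-0.44) were lower and Nfkbib (0.79) and Ikbkb (0.53) higher. Their adjusted p was 0.023 or less (edgeR), and they are named after their values were seen. Of 19 genes that NF-kappaB is known to induce, 13 were found in the table and 10 were tested. Of these 10, 7 were called higher and 0 lower, beside 12.4% and 12.7% of all tested genes. Their median log2 difference was 2.21, and the number higher was 7 under each scaling. Without H1 it was 5, as Cxcl10 (adjusted p = 0.063) and Ccl20 (log2 difference 1.02, adjusted p = 0.077, edgeR) lost their calls, and without C3 it was 6, as Ccl20 did (adjusted p = 0.052, edgeR). Without C1, 1 target gene was called lower. Ccl5, the target with the highest CPM in control IEC, was 74.8 ± 47.7 and 20.1 ± 9.44 CPM with overlapping groups. Its log2 difference was -1.9 (adjusted p = 0.073, edgeR), so it was not called with all mice, and it is named after its value was seen. The largest changes were those of the acute-phase gene Saa3 (0.188 ± 0.089 and 11.3 ± 6.44 CPM, log2 difference 5.88), Tnfaip2 (0.855 ± 0.278 and 30.2 ± 10.8 CPM, 5.14) and the siderophore-binding gene Lcn2 (0.167 ± 0.118 and 3.67 ± 2.94 CPM, 4.45). Lcn2 ranged from 3.57 without H5 to 5.18 without C3-3. In control libraries Saa3 had 5 to 14 reads and Lcn2 5 to 16. Both passed the filter on low counts only with the mutant libraries. Cxcl10 and Ccl20 are named here after their values were seen. Macrophage markers, described above, were also higher in the mutant group. Within the mutant mice, H9 had the highest macrophage sum (60 CPM, against 32.5 in H1 and 33.9 in H5). H9 also had the lowest Saa3 (3.98 CPM, against 13.6 and 16.2) and Lcn2 (1.79 CPM, against 2.16 and 7.05). Tnfaip2 was lowest in H5 (18 CPM, against 38.4 in H1 and 34.2 in H9). The part of macrophages in these levels was not tested, nor was that of NF-kappaB itself. By Western blot the paper found more phosphorylated STAT3 in mutant IEC, and the part of STAT3 in these levels was not tested either.

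**Figure D4:**
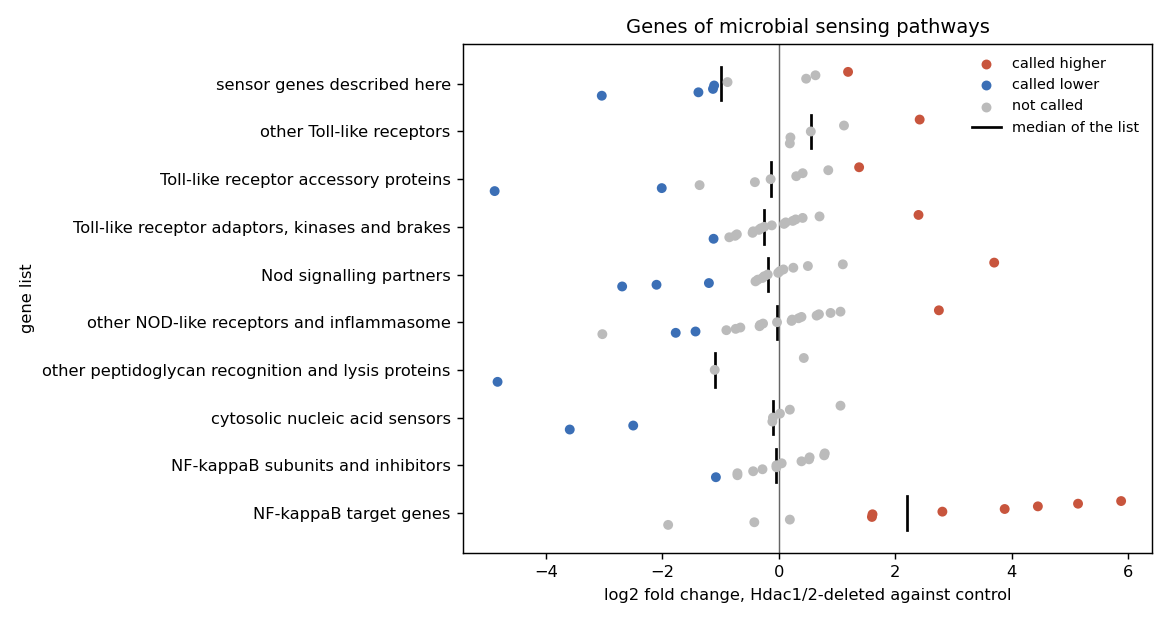
Log2 fold change of each tested gene in the sensor genes and 9 lists of related genes, with 1 point per gene (red, called higher; blue, called lower; grey, not called) and a black line at the median of each list. The list of NF-kappaB target genes has a median of 2.21, and the median of NF-kappaB subunits and inhibitors is -0.04.

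Across all of these lists together, 12 of 98 tested genes were called higher and 12 lower, with a median log2 difference of 0, beside 12.4% and 12.7% of all genes.

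Levels of different genes were compared per kilobase of merged exon length. In control IEC the order was Nlrp6 (75.2 ± 2.65 CPM per kilobase), Pglyrp1 (24.1 ± 0.575), Myd88 (13.3 ± 1.12), Tlr3 (4.54 ± 1.41), Nod2 (0.991 ± 0.697), Nod1 (0.736 ± 0.0809), Tlr1 (0.719 ± 0.181), Tlr2 (0.32 ± 0.0369) and Tlr5 (0.0468 ± 0.0188). Nod2, Nod1 and Tlr1 were neighbours whose ranges over mice overlapped. In mutant IEC Pglyrp1 (37.2 ± 6.9) and Nlrp6 (34.3 ± 2.15) headed the order with overlapping ranges, Nod1 stood at 1.68 ± 0.178 and Nod2 at 0.12 ± 0.0546, below Tlr2 (0.444 ± 0.119) and Tlr1 (0.276 ± 0.0237). The annotation gives Pglyrp1 exons far upstream of its main transcript. Per kilobase of the longest coding transcript, Pglyrp1 was 63.8 ± 1.52 and 98.5 ± 18.3 and Nlrp6 86.1 ± 3.04 and 39.3 ± 2.46 CPM per kilobase in control and mutant IEC.

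Markers of the other cell types that an EDTA preparation could hold were also measured. T cell and intraepithelial lymphocyte markers summed to 134 to 500 CPM in control mice and to 71.3 to 163 CPM in mutant mice, and 1 of 12 was called higher (Cd4) and 3 lower (8 lower without C1, 1 without C3, C3-3 or H1, and 0 higher without H9), with Klrd1 (log2 difference -2.09) and Cd3g (-1.68) the largest. Gzma had the highest CPM of them (166 ± 95.3 and 47 ± 25 CPM). B and plasma cell markers summed to 6.57 to 63.7 and 44.4 to 62.4 CPM, with Cd79b called higher (1.15 ± 0.421 and 32.7 ± 7.06 CPM) and 2 genes called higher without C1. Fibroblast and smooth muscle markers summed to 4.95 to 63.2 and 2.63 to 7.39 CPM, with 4 of 7 called lower (1 without H1 and 2 without H9). The smooth muscle gene Myh11 had 24 to 1680 reads in control libraries and 0 or 1 in mutant libraries, and Acta2 had 32 to 827 and 1 to 6. C3-3 held 4.95 CPM of this list and C1 63.2. Dendritic cell markers summed to 3.79 to 10.9 and 7.34 to 12.1 CPM with 1 of 6 called higher, Zbtb46. Endothelial markers summed to 5.96 to 9.92 and 10.1 to 11.8 CPM with 0 of 5 called (1 lower without C3-3). Most of that sum was Lyve1 (4.84 ± 0.72 and 7.87 ± 0.165 CPM), the 1 tested endothelial marker whose groups did not overlap.

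**Figure D5:**
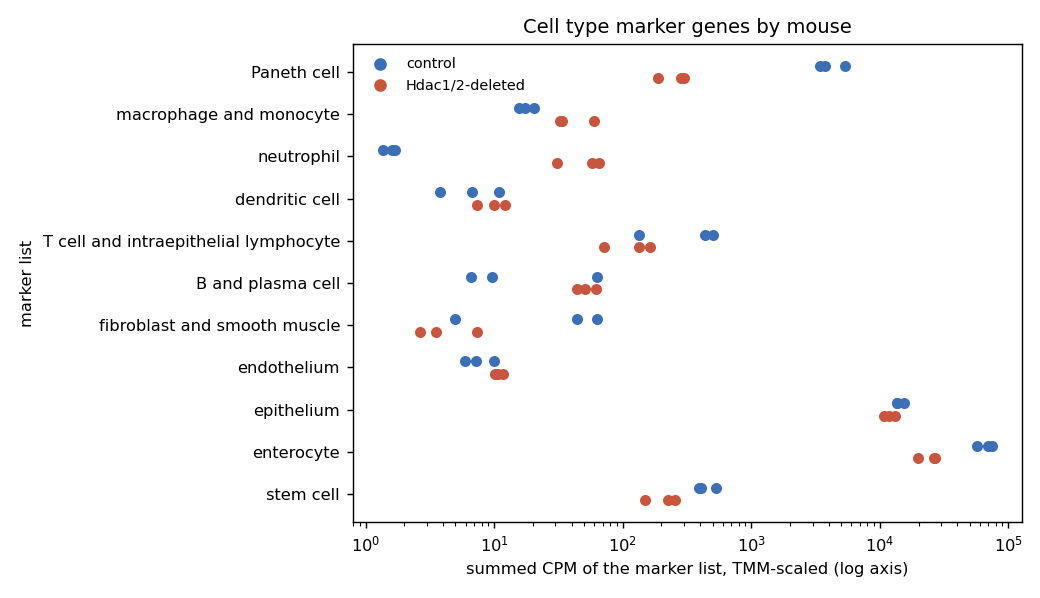
Summed level of each cell type marker list in each mouse, as TMM-scaled CPM on a log axis, with 1 point per mouse (blue, control; red, Hdac1/2-deleted). The lists of Paneth cells, enterocytes, stem cells and epithelium lie lower in every mutant mouse, and those of macrophages, neutrophils and endothelium lie higher. The neutrophil sum is nearly all from Ltf. The endothelial sum is mostly from Lyve1, and 0 of the 5 tested endothelial markers were called.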

How the data were processed

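The authors prepared poly(A) libraries with a strand-marking kit, aligned the reads with STAR (2.4.0f1 in the submitters' processing notes) and deposited raw counts of reads per gene for 6 libraries. The methods name GRCm38 and the processing notes mm9, and the read counter and annotation are not given in the sources used here. The deposited table also holds a score per sample, which the authors made by scaling and rounding the counts, their log2 fold changes and log2 CPM, and their p-values. None of these was used.

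Counts were filtered with filterByExpr (15618 of 19616 genes kept), scaled by TMM (factors 0.892 to 1.14) and fitted with edgeR 4.0.16 in R 4.3.3 (robust quasi-likelihood, prior count 0.125, no covariates). P-values were adjusted over all tested genes. The standard error is the size of the log2 fold change divided by the square root of F. Total counts were 36111035 to 65902344 per library. Each mouse gave 1 library, and the labels give no batch. Positions and exon lengths came from GENCODE M21 (GRCm38), matched by identifier, and start regions from RefSeq. The steps were tested on simulated data. Alternatives used limma 3.58.1 and DESeq2 1.42.0, other scalings, filters, prior counts and call rules, and left out each mouse.

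The members and gene lists were chosen with earlier results of these data known. All sensor genes are named, with Ripk2, Cd14, Ly96, Tlr9, Nlrc4 and Il18, up to 3 called genes of largest change per pathway list, the marker of highest CPM and up to 2 called markers per list, and the 3 genes most correlated with Nod2. For the choice of markers, CPM was not divided by gene length.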

Additional observations from a re-analysis of the deposited data

How the results depend on the processing

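The directions of the 8 tested sensor genes were the same under all alternatives run, and Nod1, Nod2 and Tlr1 kept their calls in every one. Scaling by library totals left 2 sensor genes called lower instead of 4, since Nlrp6 and Tlr3 fell under the 2-fold limit, and turned the log2 fold change of Hdac2 from -0.18 to 0.01 (adjusted p = 0.98, edgeR). Without the 2-fold limit, 3198 genes were higher and 3168 lower, 2 sensor genes were higher and 5 lower, and 18 pathway genes were higher and 19 lower. A filter of at least 10 counts in every sample gave 7 pathway genes higher instead of 12, because fewer genes were tested. Saa3, Lcn2, Card9, Sarm1 and Mefv fell under that filter, each with fewer than 10 counts in a control library. An adjusted p of at most 0.01 gave 6 markers higher instead of 10. With 1 mouse left out, 1 sensor gene was called higher and 3 to 6 lower (of 8 or 9 tested, since Tlr5 passed the filter without C1, H1, H5 or H9), while 1841 to 2109 genes of the whole table were higher and 1790 to 2012 lower, 11 to 15 pathway genes were called higher and 11 to 15 lower, and 7 to 11 markers higher and 19 to 27 lower. No paired analysis was run because the labels give no pairing of mice between the groups. Depth limits Tlr5, whose mutant libraries held at most 3 reads. With 3 mice a group, the p-values cover only the spread between these mice.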

Other observations

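Sensors of nucleic acids in the cytosol were a separate list. Of 7 tested genes, 0 were called higher and 2 lower, with a median log2 difference of -0.1, and 1 was higher without H5, without H9 and under scaling by library totals. Ifih1 (MDA5), a receptor for long double-stranded RNA, fell from 54.6 ± 6.97 to 9.61 ± 2.33 CPM, a log2 difference of -2.5 (SE 0.2, edgeR adjusted p = 4.2e-05). Mb21d1, which encodes the DNA sensor cGAS, fell from 1.77 ± 0.753 to 0.153 ± 0.0728 CPM, a log2 difference of -3.59 (SE 0.5, edgeR adjusted p = 0.00062). Of 3 tested genes for other proteins that recognize or cut peptidoglycan, Lyz1 was called lower, and Lyz2 and Pglyrp2 were not called, while 2 of the 3 were called lower without C1.

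The genes whose log2 CPM followed that of Nod2 most closely over the 6 mice were AA986860 (Pearson r = 0.9959), Ipmk (r = 0.9952) and Fam46a (r = 0.9917), with log2 differences of -1.31, -0.72 and -1.62. In all, 16 genes had r over 0.98. The 6 points share the difference between the groups and the high level in C1, so these values are a description.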
